A study of Arabidopsis thaliana with 87 samples.

Results

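The 10 genes described here encode large heat shock proteins of Arabidopsis thaliana and 2 of their helpers, and they were taken by gene identifier from the 37899 identifiers of the deposited expression table. They are HSP101 (AT1G74310), HSP90.1 (AT5G52640), HSP90.2 (AT5G56030), HSP90.3 (AT5G56010), HSP70 (AT3G12580), HSP70B (AT1G16030), HSC70-1 (AT5G02500), HSC70-3 (AT3G09440), ROF2 (AT5G48570) and BAG6 (AT2G46240). No measured value entered that choice, but it was made with earlier results of these data known. All 10 passed the filter on low values, a mean of at least 1 RPKM, in every assay. In poly(A)+ RNA, BAG6 and ROF2 did so only through the group after 1 h of reoxygenation.

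HSP70 proteins hold unfolded stretches of other proteins, and HSP90 proteins help late folding steps of clients such as receptors and kinases. HSP101 is the ClpB-type disaggregase that pulls proteins out of heat-formed aggregates together with HSP70, and plants need it to survive severe heat. ROF2 (FKBP65) is a peptidyl-prolyl isomerase that associates with HSP90.1, and BAG6 is a calmodulin-binding co-chaperone of the BAG family, whose BAG domain contacts HSP70. HSP101, HSP90.1, HSP70, HSP70B, ROF2 and BAG6 are known to be strongly induced by heat through heat shock factors. HSP90.2, HSP90.3, HSC70-1 and HSC70-3 are known as constitutive forms that are present in unstressed tissue.

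The study put 7-day-old seedlings, grown in long days on medium with 1% sucrose, in darkness at the end of the light period. The groups were 2HS (2 h of darkness with hypoxia in a chamber flushed with argon), 9HS (9 h of the same), 1R and 2R (2 h of hypoxia, then 1 h or 2 h of reoxygenation), and the dark controls in air, 2NS (2 h) and 9NS (9 h). All groups, controls included, were thus in the dark before harvest, except that the labels do not give the light during reoxygenation. Nuclear RNA (Ribo-zero) and poly(A)+ RNA (oligo-dT) came from whole seedlings of the line pUBQ10:NTF pACT2:BirA, in which nuclei carry a tag for purification, with 3 samples a group. TRAP RNA, which is RNA bound to FLAG-tagged ribosomes, came from whole seedlings of p35S:RPL18-FLAG, with 3 samples a group, so it reports on cells in which the 35S promoter is active. Chromatin immunoprecipitation (ChIP) in Col-0 seedlings covered RNA polymerase II phosphorylated at serine 2 (Ser2P, the elongating form) and H3K4me3 with 3 samples a group, and H3K9ac, H3K14ac and H3K27me3 with 2. The histone variant H2A.Z was read in pHTA11:HTA11-3XFLAG seedlings (2 samples a group), and the tagged factor HRE2, driven by the 35S promoter, in 2HS seedlings of p35S:C2A HRE2-HA (2 samples). ATAC-seq of open chromatin used root tissue of the nuclear tag line (2 samples a group), so it does not cover the shoot.

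The deposited values are RPKM, reads per kilobase of gene and per M reads of a library, averaged by the authors over the samples of a group. The reads of each library (in M, for mega) were recovered from the digits of those means, with totals of 1.05 to 16.6 M reads for nuclear RNA, 8.66 to 21.0 for poly(A)+ RNA, 2.53 to 12.4 for TRAP RNA, 9.67 to 20.2 for Ser2P and 3.87 to 13.0 for H3K9ac. For 209 of the 300 member values exactly 1 set of reads fitted, and these give the libraries named below by their total. The nuclear RNA libraries were uneven in their upper quartile over protein-coding genes above 0 RPKM. It was 1.51 RPKM in the deepest 2NS and 2HS libraries (15.5 and 16.6 M reads) and 5.57 to 12.2 RPKM in the other 4. Unresolved genes entered such quartiles at the authors' mean. Marker genes of leaf mesophyll, root, endodermis and guard cells were detected in all 3 RNA pools, while the 2 pollen markers summed to at most 0.0339 RPKM. In whole seedlings a change in RNA per cell and a change in the share of cells cannot be told apart.

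Changes are given on the log2(RPKM + 1) scale, after subtracting the change of the median gene, with their standard error (SE). They were tested with limma across all protein-coding genes, and "rose" or "fell" is used only where the Benjamini-Hochberg adjusted p was under 0.05. Comparisons within an assay share control samples, so their values are set side by side. A group whose reads were not resolved for a gene was left out of that gene's fit, which for the members used 2 to 5 groups. Members are called testable where their reads were resolved in every group compared. The labels do not say whether samples of a group came from separate cultures, so the p-values measure a spread that may be technical.

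In 2NS seedlings the 4 constitutive members stood above the 6 heat-induced ones in the means of all 3 RNA pools. HSC70-1 had 484 RPKM in 2NS nuclear RNA, 235 RPKM in poly(A)+ RNA and 348 RPKM in TRAP RNA (the authors' means), above 99.6%, 99.4% and 99.0% of protein-coding genes. HSP90.2 and HSP90.3 followed with 38.7 and 34.1 RPKM in nuclear RNA, then HSC70-3 with 17.9 RPKM. Among the heat-induced members HSP70 led, with 11.0 RPKM in nuclear RNA, 7.70 in poly(A)+ RNA and 38.9 in TRAP RNA. HSP101 and HSP90.1 were close to each other, with 4.42 and 4.24 RPKM in 2NS nuclear RNA. BAG6 (3.63 RPKM) and HSP70B (2.72 RPKM) came next, and ROF2 was lowest with 0.726 RPKM. Among the 2NS nuclear libraries HSP101 spread over 1.47, 4.89 and 6.90 RPKM and HSP90.1 over 1.72, 6.65 and 4.36 RPKM, so the order of these neighbours lies within the spread between libraries.

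The heat-induced members were far higher in nuclear RNA after 2 h of hypoxia. In the authors' means 7 of the 10 members were at least 2-fold higher in 2HS than in 2NS seedlings, all 6 heat-induced members among them, against 10.0% of protein-coding genes. The members' median change was 2.52 (log2), beside 0 for the median gene by construction. HSP101 averaged 64.5 RPKM in 2HS nuclei and 4.42 RPKM in 2NS nuclei, a ratio of 14.6. HSP90.1 averaged 56.5 and 4.24 RPKM, HSP70 110 and 11.0 RPKM, and BAG6 31.5 and 3.63 RPKM, in 2HS and 2NS nuclei in each case. HSC70-1 was the only member with a lower mean in 2HS nuclei, at 308 RPKM against 484 RPKM in 2NS nuclei. The median gene itself was lower by 0.42 (log2) in the 2HS nuclear means, and the median change and the 2-fold count are relative to it, while ratios of RPKM are not. In the same nuclear pools the leaf mesophyll markers summed to 5696 RPKM in 2HS and 8393 RPKM in 2NS, the root markers to 18.3 and 21.5 RPKM, the endodermis markers to 1.84 and 3.25 RPKM and the guard cell markers to 11.0 and 15.0 RPKM, and their part was not tested.

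ROF2 had the largest ratio of the 10 in nuclear RNA. It had 15.0, 11.4 and 18.8 RPKM in the 3 libraries of 2HS nuclei, against 0.382, 1.66 and 0.133 RPKM in the 3 libraries of 2NS nuclei. The groups did not overlap, and the lowest 2NS value rested on 1 read. ROF2 rose by 3.71 ± 0.76 (limma, SE, adjusted p = 0.00099), the 1 called member of 4 that could be tested, against 0.498% of genes called higher. It was 4.17 (adjusted p = 0.00068) without the deepest 2NS library and 3.35 (adjusted p = 0.014) without the deepest 2HS library. The call was lost without the 2NS library of 2.22 M reads (3.24, adjusted p = 0.087), with limma-voom weights (adjusted p = 0.072) and when only these 2 groups were fitted (adjusted p = 0.41). HSP70B, a further heat-inducible HSP70, had 8.48, 4.22 and 13.2 RPKM in 2HS nuclei and 0.478, 2.58 and 5.09 RPKM in 2NS nuclei. These groups overlapped, and its change of 1.90 ± 0.78 did not pass (adjusted p = 0.70). HSP90.3 (0.72 ± 1.03, in a fit of 3 of the 5 groups) and HSC70-3 (1.10 ± 0.95) did not pass either (adjusted p = 1.0 each).

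For several members more than 1 set of reads gave the same mean, and these were also tested at their least favourable set, a test chosen after seeing the data. HSP101 then changed by 3.50 to 4.09 with an adjusted p of at most 0.013, and HSP90.1 by 3.34 to 3.87 with at most 0.019. BAG6 changed by 2.71 to 3.43 with an adjusted p of at most 0.090. By this rule 3 members were called (HSP101, HSP90.1 and ROF2), against 0.517% of genes. HSP90.2 changed by 0.96 to 1.41 (adjusted p = 1.0). HSP70 and HSC70-1 had too many possible sets to be tested.

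**Figure D1:**
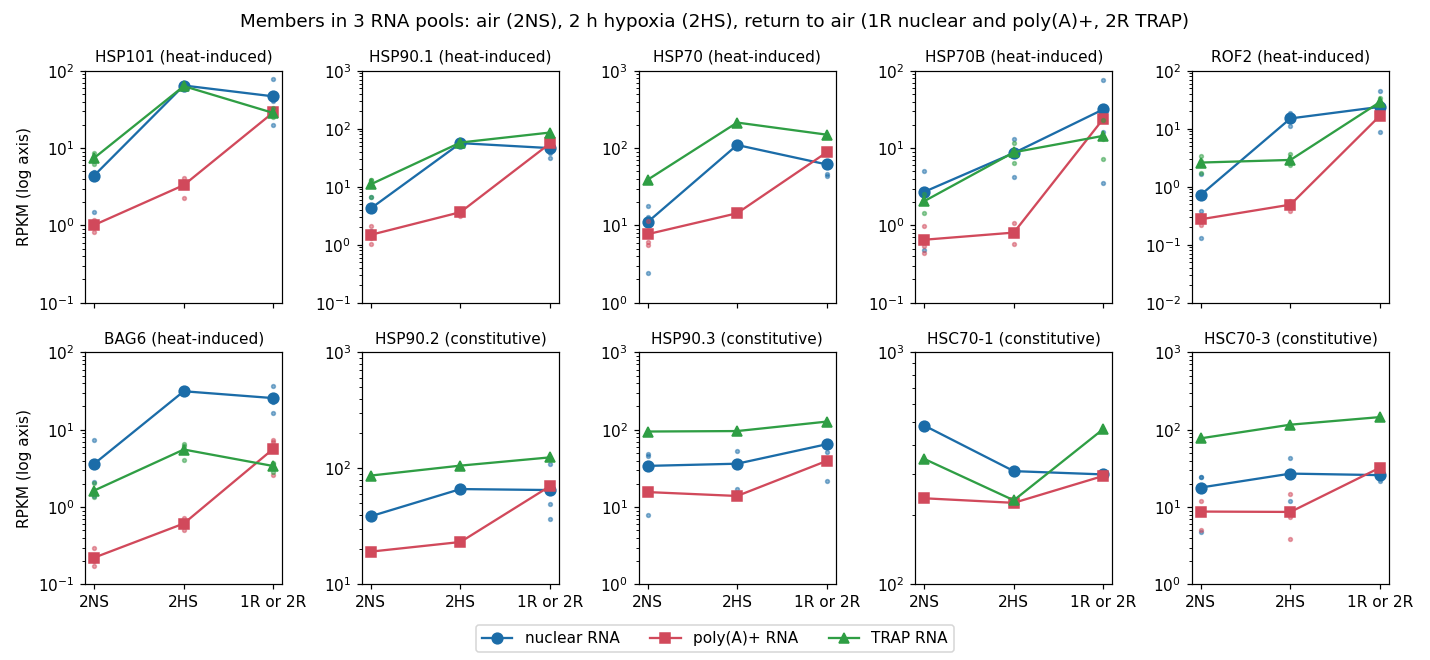
RPKM (log axis, 1 panel a member) in air (2NS), after 2 h of hypoxia (2HS) and after return to air (1R for nuclear and poly(A)+ RNA, 2R for TRAP RNA); large symbols are the authors' means and small points the recovered libraries. Nuclear means of the 6 heat-induced members were already high at 2HS, while their poly(A)+ means were high at 1R, as in ROF2 with 0.492 RPKM at 2HS and 16.9 RPKM at 1R.

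Steady-state poly(A)+ RNA did not pass the test for any member at 2 h. None of the 10 members was 2-fold higher in the poly(A)+ means of 2HS seedlings after centring, against 2.78% of genes, and 0 of the 6 that could be tested were called, against 0.488% of genes. None of the 6 had an unadjusted p under 0.05 in limma. HSP101 had 3.56, 4.15 and 2.27 RPKM in 2HS seedlings and 1.03, 1.19 and 0.823 RPKM in 2NS seedlings. These groups did not overlap, but the change of 0.90 ± 0.49, in a fit without 1R, did not pass (limma, adjusted p = 1.0). HSP90.1 had 4.11, 3.10 and 3.73 RPKM in 2HS and 1.02, 2.14 and 1.29 RPKM in 2NS seedlings, likewise without overlap (0.75 ± 0.56, adjusted p = 1.0). ROF2 stayed under 1 RPKM in all 6 libraries, with 0.579, 0.509 and 0.387 RPKM in 2HS and 0.277, 0.332 and 0.217 RPKM in 2NS seedlings. BAG6 averaged 0.613 ± 0.106 RPKM in 2HS and 0.222 ± 0.065 RPKM in 2NS seedlings (SD, n = 3 each), also without overlap. HSP70B did not separate, with 0.808 ± 0.245 and 0.653 ± 0.279 RPKM in 2HS and 2NS seedlings. At such levels the added 1 RPKM understates a ratio: with 0.1 RPKM added, 1 member reached 2-fold in the means, and likewise 1 without centring.

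The nuclear and poly(A)+ responses at 2 h were compared directly. ROF2's nuclear change exceeded its poly(A)+ change by 3.66 ± 0.86, with an unadjusted p of 2.64e-05 and an adjusted p of 0.26 in limma. HSP70B's differed by 1.95 ± 0.92 (adjusted p = 1.0) and HSC70-3's by 1.39 ± 1.16 (adjusted p = 1.0). None of these 3 testable members was called, but neither was any gene (0.0% of 10035), while 86 genes had an unadjusted p under 0.05 for a larger nuclear change. ROF2 was called without the deepest 2NS nuclear library, with upper-quartile rescaling and with no filter on low values.

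RNA on tagged ribosomes was higher at 2 h for most heat-induced members, while ROF2 differed little. In the TRAP means 5 of 10 members were at least 2-fold higher in 2HS than in 2NS seedlings, against 5.95% of genes. HSP101 averaged 63.3 RPKM in 2HS and 7.46 RPKM in 2NS, HSP70 214 and 38.9 RPKM, and HSP90.1 57.9 and 11.0 RPKM, in that order of groups. HSP70 thereby passed the 2HS mean of HSP90.2 (106 RPKM) and came close to that of HSC70-1 (230 RPKM). HSC70-1 itself averaged 230 RPKM in 2HS and 348 RPKM in 2NS. The 6 leaf mesophyll markers summed to 18980 RPKM in 2HS and 31730 RPKM in 2NS TRAP RNA, the 6 root markers to 21.3 and 40.4 RPKM, the 3 endodermis markers to 41.75 and 36.0 RPKM and the 3 guard cell markers to 15.1 and 12.6 RPKM, and their part in these results was not tested.

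Of the 3 members that could be tested in TRAP RNA, 2 rose, against 13.1% of genes called higher. BAG6 had 4.04, 6.12 and 6.50 RPKM in 2HS and 1.34, 1.54 and 2.03 RPKM in 2NS seedlings, and rose by 1.37 ± 0.19 (limma, adjusted p = 0.00021). HSP70B had 6.36, 8.52 and 11.6 RPKM in 2HS and 2.56, 1.46 and 2.15 RPKM in 2NS, and rose by 1.73 ± 0.31 (limma, adjusted p = 0.0012). The groups did not overlap for either gene. ROF2, in contrast, had 2.59, 3.71 and 2.39 RPKM in 2HS and 3.33, 2.76 and 1.75 RPKM in 2NS. Its groups overlapped and the change was 0.19 ± 0.20 (limma, adjusted p = 0.52). At the least favourable sets of reads the adjusted p was 0.51 for HSP101 and 0.13 for HSP90.1.

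The TRAP change of HSP70B exceeded its poly(A)+ change by 1.78 ± 0.52 (limma, adjusted p = 0.40), and that of BAG6 by 1.15 ± 0.49 (adjusted p = 1.0). None of the 3 testable members was called, against 0.0807% of genes. The TRAP and poly(A)+ libraries came from different transgenic lines, so line and RNA pool cannot be told apart in this difference.

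Elongating polymerase was higher over nearly all members in the means. For Ser2P 9 of 10 members were at least 2-fold higher in 2HS than in 2NS seedlings, against 4.04% of genes. Over gene bodies HSP70 had 178 and 17.6 RPKM in 2HS and 2NS, ROF2 83.9 and 9.05 RPKM, and HSP101 92.3 and 11.8 RPKM. The constitutive genes were high too, with 122 and 19.8 RPKM for HSP90.2, 87.7 and 15.8 RPKM for HSP90.3, and 67.1 and 10.8 RPKM for HSC70-3, in 2HS and 2NS. HSC70-1 had 70.3 and 42.1 RPKM, a ratio of 1.67, and was the 1 member under 2-fold. In 2HS all members but HSP70B ranked above 99% of protein-coding genes for Ser2P, whereas in 2NS ROF2 was above 32.8%, HSC70-3 above 47.4% and HSP101 above 54.6%. The others already ranked higher in 2NS, with HSC70-1 above 99.3%, HSP90.2 above 90.56%, HSP90.1 above 89.8% and HSP70 above 85.2%. No member had Ser2P reads resolved in both groups, so none entered the main test. In it limma called no gene at all (0.0% of 16558), with 378 genes higher at an unadjusted p under 0.05. At the least favourable sets of reads HSP70B (-0.02 to 1.22) and HSC70-1 (0.02 to 2.45) did not pass. HSP70B in 2NS (11.7, 15.5 and 9.47 RPKM) and ROF2 in 2NS (7.75, 12.4 and 6.95 RPKM) were the 2 member values resolved into libraries.

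**Figure D2:**
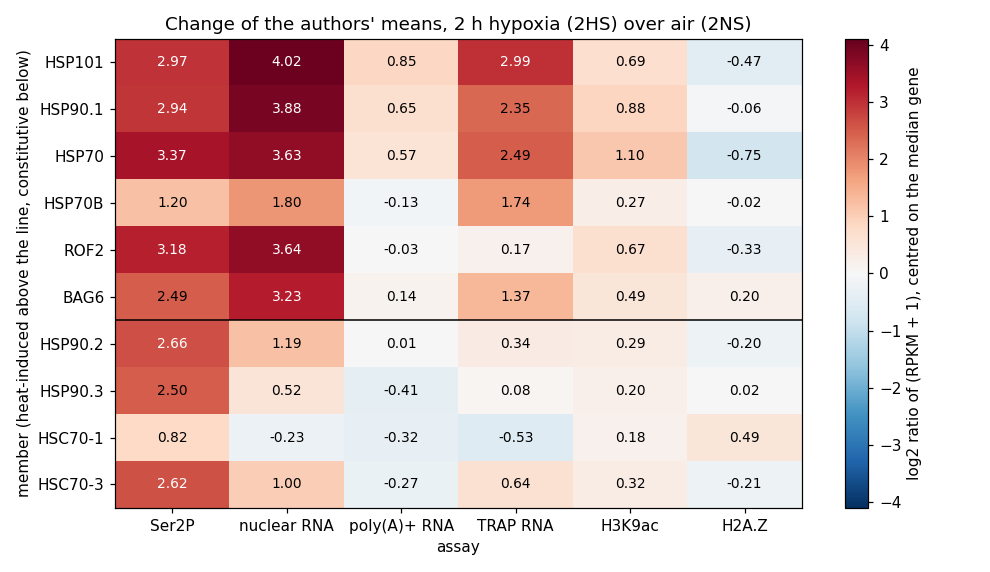
Change between 2HS and 2NS in the authors' means (log2 ratio of RPKM + 1, centred on the median gene), with members in rows and assays in columns; colour and number both give the change. Ser2P and nuclear RNA changes reached 3.37 and 4.02, while the poly(A)+ changes stayed between -0.41 and 0.85.

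HSP90.2 and HSP90.3 lie in tandem with HSP90.4 on chromosome 5 and are near-identical copies, and the HSC70 genes are also alike. How reads that match several copies were counted is not given in the sources used here, so the split of signal among these copies is uncertain. HSP90.4, not a member, had Ser2P means of 43.8 RPKM in 2HS and 12.2 RPKM in 2NS.

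Acetylation of H3K9, a mark of active genes, rose over 4 members at 2 h, all of them heat-induced, against 6.69% of genes. HSP70 had 21.7 and 23.9 RPKM in 2HS and 10.7 and 9.70 RPKM in 2NS, a rise of 1.10 ± 0.13 (limma, adjusted p = 0.00032). HSP90.1 had 18.7 and 18.6 RPKM in 2HS and 9.94 and 9.57 RPKM in 2NS, a rise of 0.89 ± 0.11 (adjusted p = 0.00046). HSP101 rose by 0.69 ± 0.13 (adjusted p = 0.0057) and ROF2 by 0.68 ± 0.13 (adjusted p = 0.0054), and no library of 1 group reached into the other for these 4 genes. The HSP101 call was lost without the 2NS library of 11.3 M reads (adjusted p = 0.053) and the ROF2 call without that of 10.6 M reads (adjusted p = 0.065). BAG6 (0.46 ± 0.18) and HSP70B (0.26 ± 0.16) did not pass, with 18.9 and 29.3 RPKM for BAG6 in 2HS against 17.7 and 16.5 RPKM in 2NS. The constitutive members changed by 0.17 (HSC70-1) to 0.32 (HSC70-3), with adjusted p from 0.11 to 0.56 in limma.

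H3K14ac, H3K4me3 and H3K27me3 gave no called member at 2 h. For H3K14ac, where 0.399% of genes were called higher, the 10 changes lay between -0.30 and 0.25, and HSP101 and HSP90.1 had unadjusted p under 0.05 in the lower direction. H3K4me3 and H3K27me3 gave no call for any gene (0.0% of 18866 and 0.0% of 26127), with 508 and 569 genes higher at an unadjusted p under 0.05 and no testable member among them. For H3K4me3 only 2 members could be tested, HSP90.1 (0.32 ± 0.15, unadjusted p = 0.052 in limma) and ROF2 (0.35 ± 0.20, unadjusted p = 0.11), while all 10 could for H3K27me3. In the means of H3K27me3, a Polycomb mark, 3 of 10 members were at least 2-fold higher in 2HS than in 2NS seedlings, against 7.89% of genes. HSP90.3 had 6.29 RPKM in 2HS and 2.21 RPKM in 2NS, HSP70B 4.52 and 1.54 RPKM, and HSC70-3 7.93 and 3.14 RPKM. Their changes in limma were 1.21 ± 0.66, 1.14 ± 0.67 and 0.91 ± 0.73, with unadjusted p of 0.10, 0.13 and 0.24. The libraries of this mark differed widely, as in the 0 and 5.59 RPKM of HSP70 in 2HS.

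H2A.Z, a variant that sits in the first nucleosomes of many stress-responsive genes, did not pass for any of the 10, against 0.0491% of genes called lower. The largest decrease was that of HSP70, with 19.1 and 18.2 RPKM in 2HS and 31.1 and 33.4 RPKM in 2NS. The groups did not overlap, and its change was -0.74 ± 0.15 (limma, adjusted p = 0.11, unadjusted p = 0.00033). HSP101 had 5.96 and 8.74 RPKM in 2HS and 10.9 and 10.3 RPKM in 2NS (-0.48 ± 0.21, adjusted p = 0.43). With limma-voom 1 member was called lower. With either of the 2HS libraries of 10.0 and 5.48 M reads left out 1 member was called lower too, but there the lone 2HS library is assumed to vary like the pair of 2NS libraries. HSC70-1 was higher, with 14.3 and 16.7 RPKM in 2HS and 10.6 and 11.2 RPKM in 2NS (0.49 ± 0.17, adjusted p = 0.35).

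After 9 h, nuclear RNA of the members was again high in hypoxia. In the authors' means 9 of 10 members were at least 2-fold higher in 9HS than in 9NS nuclei, against 13.1% of genes. HSP101 averaged 122 RPKM in 9HS and 8.28 RPKM in 9NS, HSP90.1 115 and 6.27 RPKM, HSP70 177 and 15.8 RPKM, and BAG6 63.0 and 4.63 RPKM. HSP90.2 (115 against 47.4 RPKM) and HSP90.3 (66.8 against 32.6 RPKM) were now past 2-fold, while HSC70-1 had 546 RPKM in 9HS and 617 RPKM in 9NS.

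Of the 3 members that could be tested in 9 h nuclear RNA 2 rose, against 0.792% of genes. ROF2 had 20.3, 19.3 and 17.1 RPKM in 9HS and 2.68, 2.25 and 1.81 RPKM in 9NS, and rose by 2.69 ± 0.77 (limma, adjusted p = 0.035). HSP70B had 37.6, 42.0 and 18.6 RPKM in 9HS and 5.29, 4.07 and 3.62 RPKM in 9NS, and rose by 2.67 ± 0.78 (limma, adjusted p = 0.044). Neither gene's groups overlapped, but both calls were lost whichever of the 6 libraries was left out, with adjusted p up to 0.22 and 0.27. HSC70-3 had 47.5, 78.9 and 54.6 RPKM in 9HS against 22.0, 17.7 and 21.5 RPKM in 9NS, without overlap, and did not pass (1.57 ± 0.91, adjusted p = 0.55). At the least favourable sets of reads BAG6 was called as well (2.98 to 3.60, adjusted p at most 0.023), against 0.819% of genes. HSP90.1 (2.30 to 4.08, limma, adjusted p up to 0.16), HSP90.2 (-0.39 to 2.02) and HSP90.3 (0.54 to 2.14, adjusted p up to 0.99) did not pass there. The difference between the 9 h and 2 h responses of nuclear RNA was not called for any of the 3 testable members (limma, adjusted p = 1.0 each and no unadjusted p under 0.05), nor was it called higher for any of 14500 genes.

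In poly(A)+ RNA at 9 h the median gene itself was lower by 1.75 (log2) in the 9HS means than in the 9NS means. The upper quartile over protein-coding genes above 0 RPKM was 0.988 to 2.39 RPKM in the 9HS libraries and 2.65 to 10.9 RPKM in the 9NS libraries. In RPKM as deposited HSC70-1 averaged 37.9 in 9HS and 460 in 9NS, HSP90.2 9.87 and 41.1, HSP90.3 5.90 and 30.3, and HSC70-3 3.05 and 16.8. Relative to the median gene these 4 changed by -1.82, -0.21, -0.43 and -0.39 in the means. The heat-induced members were nearer to each other on that scale, with 3.12 and 1.97 RPKM for HSP101, 5.82 and 5.02 RPKM for HSP90.1 and 12.7 and 13.4 RPKM for HSP70, in 9HS and 9NS. Markers were lower in 9HS too: the 6 leaf mesophyll markers summed to 2910 RPKM in 9HS and 44500 RPKM in 9NS, the 6 root markers to 2.08 (1 at 0) and 55.1 RPKM, the 3 endodermis markers to 1.47 and 25.5 RPKM and the 3 guard cell markers to 4.18 and 9.97 RPKM. Their part in the result was not tested.

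Relative to the median gene, all 6 heat-induced members were at least 2-fold higher in the 9HS poly(A)+ means, against 5.26% of genes, and 0 were without centring. HSP101 rose by 1.98 ± 0.49 (limma, adjusted p = 0.0057) and BAG6 by 2.09 ± 0.38 (adjusted p = 2.3e-05). ROF2 rose by 1.27 ± 0.30 (adjusted p = 0.0022) and HSP70B by 1.40 ± 0.38 (adjusted p = 0.018). These 4 of 6 testable members compare with 1.4% of genes, and none of them was called without centring, where ROF2 (-0.22) and HSP70B (-0.091) turned negative. For genes near 0 RPKM the centring itself gives a positive change: ROF2 had 0.324, 0.268 and 1.13 RPKM in 9HS against 0.857, 1.25 and 0.347 RPKM in 9NS. Without the 9NS library of 18.9 M reads 1 member was called, and without that of 12.1 M reads 2 were. BAG6 averaged 1.36 ± 0.71 RPKM in 9HS and 0.529 ± 0.24 RPKM in 9NS (SD, n = 3 each), without overlap. In RPKM the groups of HSP101 overlapped (2.56 to 4.04 in 9HS, 1.16 to 2.63 in 9NS). Those of HSP70B overlapped too (1.02 to 2.25 in 9HS, 0.416 to 2.99 in 9NS).

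**Figure D3:**
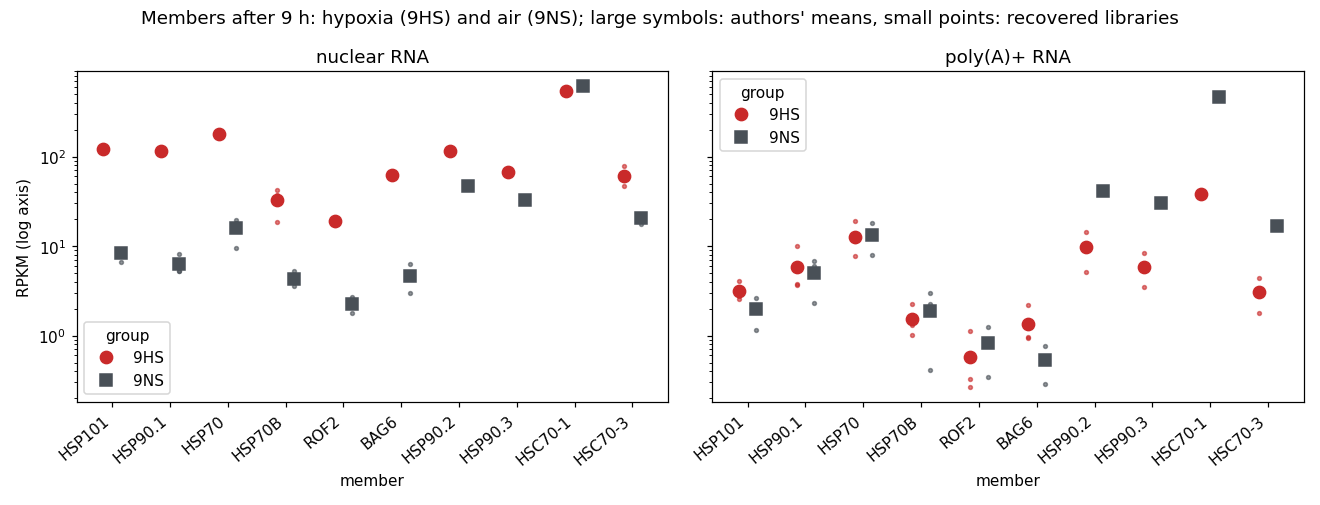
RPKM (log axis) of each member in 9HS (left, circles) and 9NS (right, squares), with nuclear RNA in the left panel and poly(A)+ RNA in the right; large symbols are the authors' means and small points the recovered libraries. Nuclear means of the heat-induced members were higher in 9HS, such as 122 against 8.28 RPKM for HSP101, while poly(A)+ means of the 4 constitutive members were lower as deposited (-0.21 to -1.82 in log2 relative to the median gene).

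H3K9ac rose over all 10 members at 9 h, against 15.1% of genes, and 9 of 10 were at least 2-fold higher in the means, against 4.28% of genes. The largest rise was that of HSP70, with 77.4 and 68.2 RPKM in 9HS and 12.1 and 13.9 RPKM in 9NS (2.39 ± 0.13, limma, adjusted p = 1.6e-06). HSP90.1 rose by 2.07 ± 0.11, ROF2 by 1.97 ± 0.13 and HSP101 by 1.96 ± 0.13 (adjusted p = 1.6e-06, 2.8e-06 and 3.3e-06). HSP101 had 63.0 and 57.8 RPKM in 9HS against 14.6 and 14.8 RPKM in 9NS. Among the constitutive members HSC70-3 rose by 1.53 ± 0.12, HSP90.2 by 1.30 ± 0.11 and HSP90.3 by 1.09 ± 0.13. HSC70-1, the highest of the 10 in 9NS, had 45.6 and 38.0 RPKM in 9HS against 26.6 and 26.7 RPKM in 9NS, the smallest rise (0.62 ± 0.15, adjusted p = 0.0087), and its call was lost without the 9NS library of 3.94 M reads (adjusted p = 0.052) or the 9HS library of 13.0 M reads (adjusted p = 0.070). No member's groups overlapped.

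The H3K9ac response was larger at 9 h than at 2 h for 9 of the 10 members, against 1.66% of genes. The difference of the responses was 1.27 ± 0.18 for HSP101 (limma, adjusted p = 0.0070), 1.29 ± 0.18 for HSP70 and 1.30 ± 0.18 for ROF2 (adjusted p = 0.0064 and 0.0063). HSC70-3 differed by 1.21 ± 0.17 (adjusted p = 0.0063), although its response at 2 h alone had not passed. HSC70-1 was the exception (0.45 ± 0.21, adjusted p = 0.28). Without the 2NS library of 10.6 M reads 5 members were called. BAG6 (1.00 ± 0.25, adjusted p = 0.0499) lost its call without any of 7 of the 8 libraries, with adjusted p from 0.068 to 0.14. No member was called between the dark controls, 9NS against 2NS, for H3K9ac (0.506% of genes higher) or H3K14ac (0.00377%), and none in nuclear (0.0409%) or poly(A)+ RNA (0.282%). In limma 1 member, HSP70, was higher in H3K9ac in 9NS at an unadjusted p under 0.05, and HSC70-3 was lower; for H3K14ac BAG6 was higher. The 9 h RNA columns hold 208 identifiers that the other columns lack, and whether they were counted alike was not tested.

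**Figure D4:**
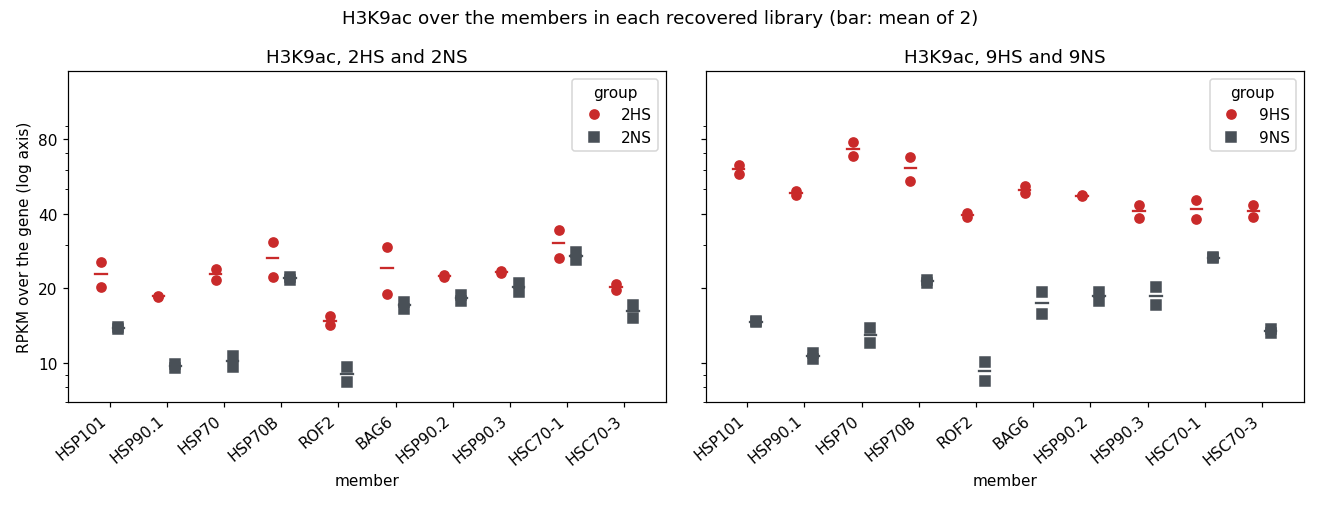
H3K9ac RPKM over each member (log axis) in the 2 recovered libraries of each group, with 2HS left of 2NS in the left panel and 9HS left of 9NS in the right panel; short bars are means. HSP70 had 21.7 and 23.9 RPKM in 2HS against 10.7 and 9.70 RPKM in 2NS, and for all 10 members both 9HS libraries lay above both 9NS libraries.

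H3K14ac rose over 9 of 10 members at 9 h, against 17.2% of genes. HSP70B had 36.4 and 49.8 RPKM in 9HS and 21.8 and 23.9 RPKM in 9NS (0.96 ± 0.17, limma, adjusted p = 0.0019). HSC70-3 rose by 0.85 ± 0.14 and HSP70 by 0.79 ± 0.12, and the other 6 called members by 0.41 to 0.61. ROF2, whose H3K9ac rise was among the largest, had 17.3 and 16.3 RPKM of H3K14ac in 9HS and 14.9 and 15.3 RPKM in 9NS and did not pass (0.24 ± 0.11, adjusted p = 0.16). Without the 9NS library of 6.55 M reads 4 members were called, and 5 without the 9HS library of 8.36 M reads. No member's H3K14ac response was called as different between 9 h and 2 h, against 0.0979% of genes, although 9 of 10 had an unadjusted p under 0.05 in limma and limma-voom called 6.

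On return to air, poly(A)+ RNA of the heat-induced members was high. After 1 h of reoxygenation (1R) 7 of 10 members were at least 2-fold higher in the poly(A)+ means than in 2HS, against 2.6% of genes. The 7 include ROF2 and BAG6, which passed the filter on low values only through 1R. Along 2NS, 2HS and 1R, HSP101 averaged 1.01, 3.32 and 29.0 RPKM and HSP90.1 1.48, 3.65 and 56.0 RPKM. HSP70 averaged 7.70, 14.4 and 88.2 RPKM, and HSP70B 0.653, 0.808 and 24.0 RPKM. ROF2 averaged 0.275, 0.492 and 16.9 RPKM, a ratio of 34.3 between 1R and 2HS. Among the constitutive forms HSP90.2 averaged 19.2, 23.2 and 70.4 RPKM, HSP90.3 15.6, 13.9 and 39.6 RPKM, HSC70-3 8.75, 8.65 and 32.4 RPKM and HSC70-1 235, 225 and 294 RPKM. The median gene was higher by 0.61 (log2) in 1R than in 2HS, and relative to it HSC70-3 alone of these 4 passed 2-fold (1.18), with 0.95 for HSP90.2, 0.83 for HSP90.3 and -0.23 for HSC70-1. None of the 4 had resolved reads in 1R, so none entered the main test. At the least favourable sets of reads HSP90.3 (-0.53 to 1.04) and HSC70-3 (-0.25 to 1.28) did not pass. Markers moved between these groups too: the 6 leaf mesophyll markers summed to 25870 RPKM in 1R and 17770 RPKM in 2HS, the 6 root markers to 19.8 and 13.7 RPKM, the 3 endodermis markers to 18.4 and 12.9 RPKM and the 3 guard cell markers to 9.15 and 6.30 RPKM. Their part in the result was not tested.

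BAG6 was the only member whose poly(A)+ reads were resolved in all 3 of these groups. It had 2.57, 7.04 and 7.44 RPKM in 1R, against 0.608, 0.509 and 0.722 RPKM in 2HS and 0.172, 0.295 and 0.199 RPKM in 2NS. No library overlapped between 1R and the other 2 groups. BAG6 passed the filter on low values only through its 1R mean (5.68 RPKM), with 0.222 to 1.36 RPKM in the other groups. Its tests on 1R are therefore not independent of that filter. Between 1R and 2HS the change was 1.31 ± 0.38 (limma, adjusted p = 0.068), so 0 of 1 testable member was called, with an unadjusted p of 0.00065, against 0.434% of genes. Between 1R and 2NS it rose by 1.54 ± 0.38 (adjusted p = 0.016), against 0.465% of genes, and that call was lost without the 2NS libraries of 12.8 or 12.4 M reads or the 1R libraries of 15.2 or 10.8 M reads (adjusted p from 0.064 to 0.59). Without the 2HS library of 12.2 or the 1R library of 21.0 M reads, the change between 1R and 2HS was called.

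At the least favourable sets of reads HSP70B (2.33 to 3.04, adjusted p at most 0.00050) and ROF2 (1.42 to 2.84, at most 0.017) were higher in 1R than in 2HS, against 0.403% of genes. ROF2, like BAG6, passed the filter only through its 1R mean (16.9 RPKM), with 0.275 to 0.817 RPKM in the other groups. The calls of both genes on 1R, and counts that include them, are therefore not independent of that filter. Against 2NS, HSP101 (2.07 to 3.07, adjusted p at most 0.041), HSP70B (at most 0.0011) and ROF2 (at most 0.015) were called together with BAG6, against 0.501% of genes. HSP90.1 (adjusted p = 1.0 in both) was not, with a change of 0.06 to 2.97 between 1R and 2HS over its sets of reads. HSP101 (1.16 to 2.16) did not pass between 1R and 2HS. HSP90.3 and HSC70-3 passed in neither comparison.

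In nuclear RNA, 0 of 4 testable members were called between 1R and 2HS, against 0.43% of genes called lower, and none had an unadjusted p under 0.05. In the means HSP101 averaged 4.42, 64.5 and 46.6 RPKM along 2NS, 2HS and 1R. HSP70 averaged 11.0, 110 and 61.5 RPKM, which relative to the median gene was -1.29 (log2) between 1R and 2HS, and HSP70B 2.72, 8.64 and 31.8 RPKM, a change of 1.30. HSC70-1 averaged 484, 308 and 298 RPKM along the same stages. The 1R libraries were uneven, with 41.2, 20.1 and 78.6 RPKM for HSP101, the highest in the shallowest library of 1.05 M reads. That library was highest for HSP70B too, with 75.5 RPKM against 16.3 and 3.49 RPKM in the other 1R libraries. Against 2NS, ROF2 rose by 3.54 ± 0.76 (limma, adjusted p = 0.018), 1 of 8 testable members against 0.0196% of genes, with 18.3, 8.93 and 44.4 RPKM in 1R. The ROF2 call was lost without either of the 2NS libraries of 3.02 and 2.22 M reads or without the 1R libraries of 8.84 or 1.05 M reads (adjusted p from 0.14 to 1.0), with limma-voom and with only the 2 groups fitted (adjusted p = 1.0 each). HSP101 (2.95 ± 0.81, adjusted p = 0.37) and HSP90.1 (3.07 ± 0.80, adjusted p = 0.30) did not pass although their groups did not overlap; both fits used 3 of the 5 groups.

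On ribosomes, ROF2 was high after reoxygenation. It had 33.7, 25.5 and 27.6 RPKM in 2R, against 2.59, 3.71 and 2.39 RPKM in 2HS, and rose by 2.74 ± 0.20 (limma, adjusted p = 4.7e-07). Of 3 testable members ROF2 was the 1 that rose in 2R relative to 2HS, against 17.9% of genes, and BAG6 was the 1 that fell, against 17.5% of genes. BAG6 had 3.74, 3.60 and 2.83 RPKM in 2R and 4.04, 6.12 and 6.50 RPKM in 2HS, and fell by 0.77 ± 0.19 (adjusted p = 0.0076). HSP70B did not pass (0.35 ± 0.31, adjusted p = 0.41), with 22.8, 7.16 and 13.3 RPKM in 2R against 6.36, 8.52 and 11.6 RPKM in 2HS. Without the 2R library of 4.35 M reads 2 members were called higher.

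Against seedlings that were never hypoxic, 3 of 4 testable members rose in 2R ribosome-bound RNA, compared with 2.58% of genes. ROF2 rose by 2.94 ± 0.20 (limma, adjusted p = 1.8e-06) and HSP70B by 2.09 ± 0.31 (adjusted p = 0.0026). HSP101 had 26.5, 33.4 and 25.4 RPKM in 2R and 8.61, 7.62 and 6.14 RPKM in 2NS, and rose by 1.67 ± 0.17 (adjusted p = 0.00030), from a fit of 2 of the 3 TRAP groups, as its 2HS reads were not resolved. BAG6 did not pass (0.61 ± 0.19, adjusted p = 0.091). In the authors' means HSP101 had 7.46, 63.3 and 28.4 RPKM along 2NS, 2HS and 2R, HSP70 38.9, 214 and 149 RPKM, and HSP90.1 11.0, 57.9 and 86.1 RPKM. Reoxygenation lasted 1 h for the nuclear and poly(A)+ groups and 2 h for TRAP, so these stages are not matched.

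Open chromatin in roots was recorded as 1 peak list per condition, called by the authors on combined files, so there is no replicate check. Promoter peaks (HOMER's promoter-TSS class, TAIR10) were listed for 8 of the 10 members in 2HS and 1 in 2NS, against 39.4% and 21.4% of protein-coding genes. The lists differ in length, with 27219 peaks in 2HS and 14398 in 2NS. At 9 h the order of lengths was the reverse, with 21438 peaks in 9HS and 27065 in 9NS, while 8 members had a promoter peak in 9HS and 4 in 9NS, against 32.9% and 38.5% of genes.

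The same 4 heat-induced genes, HSP101, HSP90.1, HSP70 and ROF2, had a promoter peak in both hypoxic lists, and no heat-induced member had one in 2NS, 9NS or 1R. The HSP70 peak lay at chr3:3993816-3993940 in 2HS, 8 bases from the annotated start, with a deposited HOMER score of 29.0, and at chr3:3993809-3993946 in 9HS, with a score of 39.8. The HSP101 peak at chr1:27940235-27940359 lay 12 bases from its start in 2HS, with a score of 38.7. The 1R list, the longest with 38958 peaks and a promoter peak at 50.7% of genes, did hold a peak nearest to HSP101, 2 bases from its start (score 23.8), but HOMER gave it to the promoter of the neighbour AT1G74320. ROF2's promoter peak lay at chr5:19693714-19693838 in 2HS (score 33.9) and at chr5:19693717-19693854 in 9HS (score 45.0), and peaks at its transcript end were listed in all 5 conditions. HSP90.1's peak was centred at -243 bases from its start in 2HS, at chr5:21352252-21352376.

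All 4 constitutive members had promoter peaks in every list but that of 2NS, where only HSC70-3 had one. HSC70-3's highest promoter score was 23.5 in 2NS, 96.8 in 2HS and 119.7 in 1R, and 107 in 9HS against 46.8 in 9NS. HSP70B had no peak in any ATAC list, and BAG6 had only exon peaks, in 9HS and 1R. With peaks at or above the median score of their list alone, 4 members had a promoter peak in 2HS and 0 in 2NS, against 22.9% and 10.4% of genes. In the same way 7 had one in 9HS and 2 in 9NS, against 18.2% and 22.65% of genes, and 3 had one in 1R, against 32.0% of genes. The 4 in 2HS were HSP101, HSC70-1, HSC70-3 and HSP90.3. The 2HS promoter peaks of HSP70 (29.0), HSP90.1 (33.1) and ROF2 (33.9) lay under the median of 36.3. In 9HS those of HSP101, HSP90.1, HSP70 and ROF2 all lay above the median of 35.4.

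**Figure D5:**
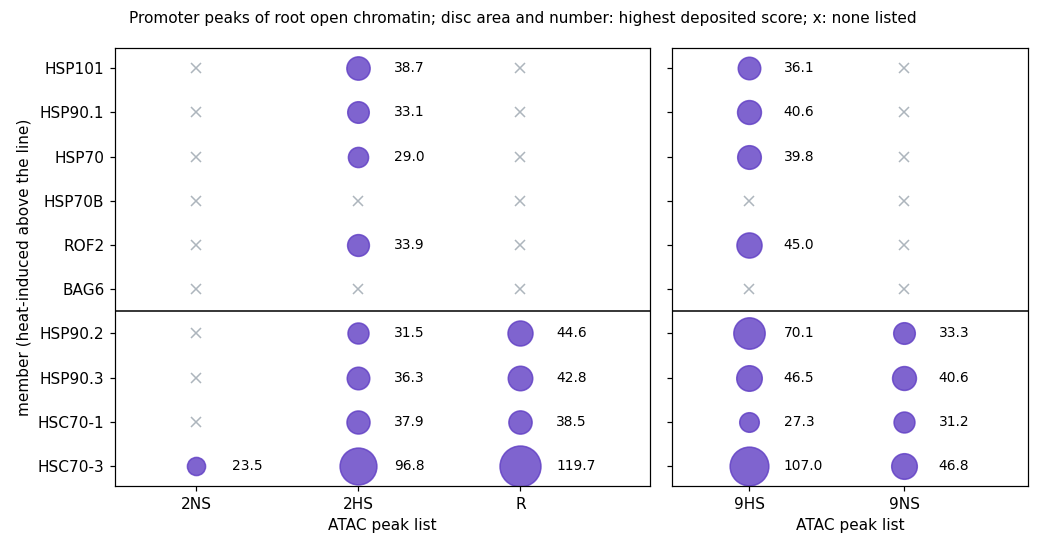
Promoter peaks of the members in the root ATAC lists (columns), with disc area and number giving the highest deposited score and a cross meaning that none was listed; R is the 1R list, and 9HS stands left of 9NS. HSP101, HSP90.1, HSP70 and ROF2 have a disc only in the 2HS and 9HS columns. A 1R peak 2 bases from the HSP101 start has no disc, because HOMER gave it to the promoter of AT1G74320.

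HRE2, a hypoxia-responsive ethylene response factor, had 4721 peaks in 2HS seedlings that express it from the 35S promoter, and none was in a member's promoter class, against 5.6% of genes. A peak at chr5:19690250-19690405 lay at the transcript end of ROF2. Others were nearest to HSP70B, 449 bases from its start, and to HSC70-3, 127 bases from its start, but HOMER assigned both to neighbouring genes.

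The other genes of the chaperone system were counted from a list of 40 genes (further HSP70 and HSP90 genes, organelle chaperones, co-chaperones) and from the 21 heat shock factors. In Ser2P means 20 of the 40 chaperone genes were at least 2-fold higher in 2HS than in 2NS, with a median change of 1.05, against 4.04% of all genes. HOP3, a co-chaperone that links HSP70 and HSP90, had 64.9 RPKM in 2HS and 8.77 RPKM in 2NS, and HSP70-8 had 50.8 RPKM in 2HS and 7.98 RPKM in 2NS. In nuclear RNA at 2 h, HOP3 was the 1 chaperone gene called of 37 tested, against 0.498% of all genes, with a rise of 3.14 ± 0.74 (limma, adjusted p = 0.0078). The factor HSFA2, which prolongs heat responses, rose by 3.11 ± 0.72 (adjusted p = 0.0065), with 14.1 RPKM in 2HS and 1.24 RPKM in 2NS, and HSFA7B was called as well but was listed at 0 in 2NS.

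In TRAP RNA at 2 h, 3 of 14 tested chaperone genes rose and 1 fell, with a list median of 0.16 in the means, and 7 of 14 tested heat shock factors rose, against 13.1% of all genes called higher and 12.3% called lower. HSP70-8 rose by 1.18 ± 0.22 (limma, adjusted p = 0.0017) and HSFA8 by 2.16 ± 0.21 (adjusted p = 8.0e-06). For H3K9ac 15 of 40 chaperone genes rose and 3 fell at 2 h, against 6.69% and 5.01% of all genes. At 9 h 29 rose and 2 fell, against 15.1% and 16.3% of all genes. The 2 that fell at both times, BAG2 and BAG3, are BAG family genes like BAG6, with 14.9 RPKM for BAG3 in 9HS and 37.0 RPKM in 9NS. HSFA2 had the largest H3K9ac rise of both lists at 9 h, with 75.1 RPKM in 9HS and 6.87 RPKM in 9NS (3.26 ± 0.15, adjusted p = 1.0e-06).

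After reoxygenation, 6 of 18 tested chaperone genes rose and none fell in TRAP RNA between 2R and 2NS, against 2.58% of all genes called higher. HOP3 rose most (2.30 ± 0.16, limma, adjusted p = 1.3e-05), with 34.2 RPKM in 2R and 5.52 RPKM in 2NS, and HSA32, needed for long-term acquired heat tolerance, rose by 1.79 ± 0.21. Between 2R and 2HS, 6 of 14 tested heat shock factors fell and none rose, against 17.5% and 17.9% of all genes. HSFA8 fell most, with 2.03 RPKM in 2R and 12.6 RPKM in 2HS (-2.41 ± 0.21, adjusted p = 2.0e-06). In poly(A)+ RNA, 2 of 16 tested chaperone genes rose between 1R and 2HS, against 0.434% of all genes. They were HSP70-8 (1.88 ± 0.46, adjusted p = 0.0060) and the mitochondrial disaggregase CLPB4 (1.49 ± 0.42, adjusted p = 0.047).

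Levels over the 13 RNA columns were also compared between genes, as Pearson correlations of log2(RPKM + 1). Each gene's mean within each RNA pool was subtracted first. The columns were not centred on the median gene. Its shifts, such as -1.75 (log2) between 9HS and 9NS in poly(A)+ RNA, thus stay in the correlations. The columns share lines, controls and depth, so the correlations are given as a description among 11911 genes. HSP101 was most like HSP70 (r = 0.99), AT1G54050, AT1G67360, BAG6 and PS2 (r = 0.98 to 0.97). HSP70's list held HSP101, HSP90.1, PS2, AT1G54050 and AT1G59660, and BAG6's held HSP101, HSP70, AT1G59660, AT1G54050 and HSP90.1. HSC70-1 was most like COL3, CaS, CAB1, PI4K GAMMA 7 and PUT5 (r = 0.99 to 0.98), and its correlation with HSP101 was -0.09. High r with HSC70-1 was common: HSP90.3, at r = 0.71, ranked 6489 and HSP90.2, at r = 0.63, ranked 8301 among the 11911 genes. ROF2 had r = 0.81 to HSP101 and 0.83 to HSP70.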

How the data were processed

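The authors deposited 1 table of RPKM whose 30 columns are means over the samples of a group, and HOMER peak lists with a peak score per ATAC condition, called on combined files per the file headers. Bowtie2, TopHat2, HOMER and the build TAIR10 are named in the submitters' processing notes, while no version, role, read counter or strandedness is given in the sources used here. Distances to a start and coordinates are those of the deposited lists.

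The members and gene lists were chosen with earlier results of these data known. Of the 37899 identifiers 37746 matched RefSeq (TAIR10.1), which gave gene types (27444 protein-coding) and lengths. Each RPKM mean was solved for whole reads per library, within 0.55 units of its last digit. Of the genes checked in each column, 99.87% or more had a whole-read solution. The recovery and the limma fits were tested on simulated data with known reads and changes. The limma simulation set the spread between libraries at 0.15 of the mean, and called 43% of 2-fold and 88% of 4-fold nuclear RNA changes at 2 h. Real nuclear libraries could vary more (HSP101 in 2NS: mean 4.42, SD 2.74 RPKM), so it does not show how the fits perform at that spread. With 1 solution a gene was resolved and entered limma 3.58.1 (R 4.3.3) on log2(RPKM + 1) with a variance trend, all groups of an assay in 1 fit. Genes needed a mean of 1 RPKM, changes were centred on the median gene, and p-values were adjusted by Benjamini-Hochberg over all genes tested. A group without resolved reads for a gene was left out of that gene's fit. Genes with 2 to 50 solutions were tested at the least favourable one, an alternative added after seeing the data. Means alone were compared as ratios of at least 2-fold, with no test.

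Depth limits low genes: 1 read of ROF2 was 0.133 RPKM in the 2NS nuclear library of 2.22 M reads. Alternatives were another pseudocount (0.1 RPKM), no filter, no centring, upper-quartile rescaling, fits of the compared groups only, limma-voom, each library left out, and a 4-fold limit. Named genes were the 10 members, up to 4 called list genes a direction with the largest change, and the 5 genes most alike in pattern to 4 members. HSP90.4, and the Ser2P values of HOP3 and HSP70-8, were chosen after their values were seen. Promoter and protein sequences were not analysed here.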

Additional observations from a re-analysis of the deposited data

Results flagged for a closer look

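The H3K9ac response to hypoxia differed between 9 h and 2 h for 9 members by a test of the difference itself (limma, adjusted p from 0.0054 to 0.0499), in each case larger at 9 h. The difference was 1.27 for HSP101, 1.19 for HSP90.1, 1.00 for HSP90.2 and 0.88 for HSP90.3 on the log2 scale. It was 1.29 for HSP70, 1.19 for HSP70B and 1.21 for HSC70-3. It was 1.30 for ROF2 and 1.00 for BAG6. The 9 h and 2 h libraries are different samples, and in air no member's H3K9ac was called between 9NS and 2NS (limma, adjusted p from 0.41 to 1.0). HSP70 was higher in 9NS (0.30, limma, adjusted p = 0.41) and HSC70-3 lower (-0.26, adjusted p = 0.45), both with an unadjusted p under 0.05.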

How the results depend on the processing

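Of 48 member calls, 26 held under every alternative; over 548 alternatives 457 kept direction and threshold, 89 lost significance and 2 reversed. The reversals were HSP70B (-0.091) and ROF2 (-0.22) in poly(A)+ RNA at 9 h without centring. There the shift of the median gene (-1.75) stays in the change. No paired analysis was possible because the columns are means that carry no replicate numbers. Promoter motifs, protein identity and peak overlap with gene windows were not run.

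Counts of called members moved as follows. With only the compared groups fitted they were 0 for nuclear RNA at 2 h and for 1R against 2NS, and 1 for poly(A)+ RNA at 9 h and for the TRAP and poly(A)+ difference. With limma-voom they were 0 for those nuclear comparisons, 1 lower for H2A.Z, 2 for poly(A)+ RNA at 9 h and 6 for the H3K14ac difference between times. Upper-quartile rescaling gave 1 for poly(A)+ RNA at 2 h and for 1R against 2HS, 4 for nuclear 1R against 2NS, and 1 for the nuclear and poly(A)+ and the H3K14ac differences. Without a filter the count was 1 for nuclear RNA at 9 h, 0 for nuclear 1R against 2NS, and 1 for poly(A)+ 1R against 2HS and the nuclear and poly(A)+ difference. Without centring it was 1 for nuclear RNA at 9 h, 0 for poly(A)+ RNA at 9 h and 1 for poly(A)+ 1R against 2HS. With a pseudocount of 0.1 RPKM nuclear RNA at 9 h gave 0. Least favourable reads gave 3 for nuclear RNA at 2 h and 2 and 4 for poly(A)+ 1R against 2HS and 2NS. Both poly(A)+ counts include ROF2, and that against 2NS includes BAG6, genes that passed the filter only through 1R.

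Leaving out 1 library, the counts ranged from 0 to 1 for nuclear RNA at 2 h, for poly(A)+ 1R against 2HS and 2NS, for H2A.Z, for nuclear 1R against 2NS and for the nuclear and poly(A)+ and H3K14ac differences. They ranged from 0 to 0 for nuclear RNA at 9 h, 1 to 5 for poly(A)+ RNA at 9 h, 4 to 8 for H3K14ac at 9 h, 1 to 2 for TRAP 2R against 2HS (2 without the 2R library of 4.35 M reads) and 5 to 9 for the H3K9ac difference.

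Counts in the means were 1 for poly(A)+ RNA at 2 h with 0.1 RPKM or without centring, and 0 at 9 h without centring. At 4-fold they were 3 for TRAP RNA at 2 h, 2 for poly(A)+ RNA and H3K9ac at 9 h and 4 for poly(A)+ 1R against 2HS. Promoter peaks at or above the median score were 0 in 2NS, 4 in 2HS and 2 in 9NS.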
